A study of Mus musculus with 6 samples.

Results

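Cytosolic ribosomal protein genes encode the protein components of the ribosomes that work in the cytosol. They were taken as every row of the deposited count table whose symbol has the form of a large subunit gene (Rpl followed by a number, or Rplp0 to Rplp2) or of a small subunit gene (Rps followed by a number, or Rpsa). This gave 88 of 33639 gene symbols, 52 for the large and 36 for the small subunit. All 88 matched a gene of GENCODE M21 (GRCm38, mm10), in which 83 are annotated as protein coding and 5 are not (Rpl6l, Rps12l1, Rps3a2, Rps3a3 and Rps4l). Rows named as pseudogenes, mitochondrial ribosomal proteins, and ribosome proteins with other names, such as Fau and Rack1, fall outside the rule.

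RNA sequencing was done on 4 livers and 2 adrenal glands of global ABCG8 KO mice, in which every tissue lacks the protein, with 1 mouse per group. Abcg8 encodes one chain of the pump by which liver and gut expel plant sterols, so that its loss lets dietary plant sterols accumulate. All 6 groups, the controls included, carried the knockout, were labelled male and were kept until weaning on low sterol food that held 0.005% ezetimibe, which blocks sterol uptake from the gut. From then on, for 12 weeks, the livers came from mice on low sitosterol, high sitosterol, ergosterol or stigmasterol diets, and the adrenals from mice on low or high sitosterol diets. No mouse with an intact Abcg8 gene was compared here, and sterol doses, ages and the deleted part of Abcg8 are not stated in the labels.

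Ribosomal proteins are made in near equal numbers and assembled on ribosomal RNA in the nucleolus, so their genes are known for transcript levels that move together. Their mRNAs begin with a C followed by a run of C and T bases (a terminal oligopyrimidine, or TOP, sequence), through which the kinase complex mTORC1 and the protein LARP1 control their translation. In liver they are among the most abundant mRNAs of general function, behind those for secreted plasma proteins.

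A total of 63 of the 88 members matched a start region of RefSeq (GRCm38.p6), 250 bases before to 50 after the transcription start. The windows of 30 bases around the start, 15 on each side, are shown for members that stood at the edges of the comparisons below. A TOP sequence, where a gene has one, begins at the start. Capitals mark the longest run of C and T bases that overlaps the 5 bases on either side of the start. They are Rps18 at chr17:33955651-33955680 on the minus strand, Rps27 at chr3:90213634-90213663 on the minus strand, Rpl22l1 at chr3:28805493-28805522 on the plus strand, Rplp2 at chr7:141447636-141447665 on the plus strand, Rps21 at chr2:180257364-180257393 on the plus strand and Rpl10 at chrX:74270801-74270830 on the plus strand.
Rps18: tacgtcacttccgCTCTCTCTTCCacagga
Rps27: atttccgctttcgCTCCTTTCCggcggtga
Rpl22l1: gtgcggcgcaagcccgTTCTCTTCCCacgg
Rplp2: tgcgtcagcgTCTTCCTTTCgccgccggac
Rps21: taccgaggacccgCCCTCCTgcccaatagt
Rpl10: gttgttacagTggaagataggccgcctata
A run of at least 6 C or T bases overlapping the 5 bases on either side of the annotated start was present in 30 of the 63 members (47.6%), against 20.96% of all 27025 genes with a start region. For a member the start nearest its GENCODE gene start was used, and for all genes the first one listed. The shares thus rest on starts chosen in different ways. Rps18 had a run of 11 bases and Rpl10 had no run beyond 1 base at the RefSeq start used. Starts in the annotation can differ by some bases from those used in a tissue, so a missing run says only that these letters are not in this window.

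The start regions, with the same difference in the choice of starts, were also searched on both strands for 4 short motifs. CCGGAAG, the letters bound by ETS family factors, was present in 25 of 63 members (39.7%) and in 9.12% of all start regions. GGGCGG, a GC box, was present in 38 members (60.3%) and in 35.9% of all regions. TATAAA was present in 6 members (9.52%) against 14.2%, and the E-box CACGTG in 5 (7.94%) against 7.24%. The 2 sequences below run from 100 bases before to 15 bases after the start of Rps18 (chr17:33955651-33955765, minus strand) and Rps21 (chr2:180257279-180257393, plus strand), with CCGGAAG in capitals. They are shown because Rps18 had the lowest and Rps21 the highest ratio of all members in the stigmasterol liver, and both hold the motif.
Rps18: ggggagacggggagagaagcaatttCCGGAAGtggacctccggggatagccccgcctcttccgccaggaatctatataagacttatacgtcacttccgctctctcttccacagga
Rps21: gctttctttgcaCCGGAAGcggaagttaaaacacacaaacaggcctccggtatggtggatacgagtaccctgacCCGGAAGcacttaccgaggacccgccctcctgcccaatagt

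Some facts of the libraries bear on these genes. After rounding, totals ran from 41546507 to 50573364 estimated counts. The low sitosterol liver, the control of all liver comparisons, held adrenal genes: a list of 7 adrenal cortex markers summed to 89.3 CPM, the unit of counts divided by the library total, against 3.83 to 11.5 in the other livers and 56290 and 57242 in the adrenals. The adrenals are labelled male, and 4 Y-linked genes, chosen after their values were seen, were lower in them than in the livers. Ddx3y had 3 counts in each adrenal (livers 1188 to 2201), Eif2s3y 0 and 2 (1293 to 1680), Uty 9 and 19 (252 to 443) and Kdm5d 87 and 105 (323 to 500). The first pair was at or near 0 and the others were not, so these counts do not settle the label. If the label is wrong, sex differs along with tissue wherever adrenal is set beside liver below, and their parts cannot be told apart. In the stigmasterol liver the summed markers of cholangiocytes (111 CPM against 6.68 to 14.1 in the other livers), of stellate cells and matrix (1049 against 132 to 175) and of dividing cells (127 against 1.53 to 16.3) were highest and those of hepatocytes were lowest (76625 against 95820 to 135234). The 10 most abundant genes took 17.7% to 24.3% of the counts of a liver and 10.5% or 10.6% of an adrenal. Since each group is a single library, no difference could be tested or checked in replicates. The 95% intervals of single genes and of shares hold counting error only. Those of medians describe the spread over members, which are not independent, and do not measure differences between mice. In whole tissue, fewer cells of a type and less RNA per cell cannot be told apart.

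Ribosomal protein genes took between 1.45% and 2.94% of all counts of a library. Among livers the share was 1.96% on low sitosterol, 1.98% on high sitosterol, 1.45% on ergosterol and 2.46% on stigmasterol. In the adrenals it was 2.51% on low and 2.94% on high sitosterol. The ergosterol liver thus had the smallest share and the high sitosterol adrenal the largest. The share on high sitosterol was 1.01 times that on low sitosterol in liver, close to equal. The share of the ergosterol liver was 0.739 times that of the low sitosterol liver (0.737 to 0.741), and that of the stigmasterol liver was 1.26 times (1.25 to 1.26). Between the adrenals the ratio of high to low sitosterol was 1.17.

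TPM values weigh each gene by its length, and since ribosomal protein mRNAs are short, they took a larger part of TPM than of counts. For livers the share of TPM was 4.30% on low sitosterol, 4.65% on high sitosterol, 3.63% on ergosterol and 6.33% on stigmasterol. It was 7.82% and 8.88% in adrenals on low and high sitosterol. The order of the libraries was the same on both scales.

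**Figure D1:**
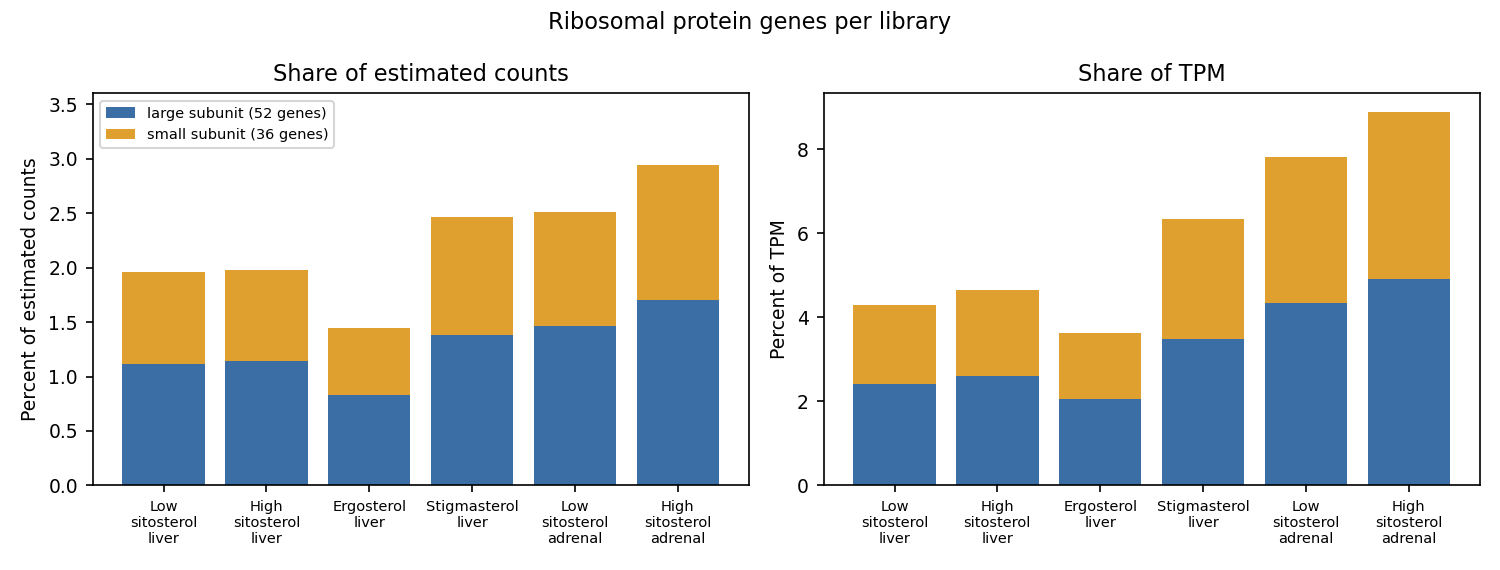
Share of all estimated counts (left, percent) and of TPM (right, percent) taken by ribosomal protein genes in each of the 6 libraries, with bars stacked by subunit and starting at 0. On both scales the ergosterol liver is lowest (1.45% of counts) and the high sitosterol adrenal highest (2.94%).

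Large and small subunit genes kept close proportions in all 6 libraries. There were 1.33 large subunit counts per small subunit count on low sitosterol, 1.35 on high sitosterol, 1.36 on ergosterol and 1.27 on stigmasterol in liver. The values were 1.40 and 1.38 in adrenals on low and high sitosterol. On the TPM scale the ratio ran from 1.23 in the stigmasterol liver to 1.29 in the ergosterol liver. The stigmasterol liver was thus the one with the smallest excess of large subunit transcripts on both scales.

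Single members spanned a wide range of levels within each library. Of the 88 members, 81 reached 1 CPM in at least 1 library of each tissue and were analysed. Their median level was 473, 525, 454 and 741 TPM in livers on low sitosterol, high sitosterol, ergosterol and stigmasterol, with 1010 and 1148 TPM in adrenals on low and high sitosterol. In the low sitosterol liver the analysed members ran from 23.4 to 1562 TPM. In the middle of the range they lay closer, and the upper quartile of TPM was 1.87 to 2.30 times the lower quartile. The 10 most abundant members took 22.6% to 26.6% of the members' TPM.

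Rplp1, one of the acidic proteins of the stalk that recruits elongation factors, was the most abundant member in every library. It stood at 1562, 2133, 1551 and 3109 TPM in livers on low sitosterol, high sitosterol, ergosterol and stigmasterol, followed by 2553 and 2965 TPM in adrenals on low and high sitosterol. Among the next by mean TPM were Rps29, Rps2 and Rpl13a in liver and Rpl13a, Rps14, Rps24 and Rps29 in adrenal. Rpl13a, which also has a reported role in translational silencing of inflammatory mRNAs, stood at 1074, 1257, 864 and 1785 TPM in the livers in the same order, and at 2347 and 2781 TPM in the adrenals.

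Rpl5 and Rpl11 bind 5S ribosomal RNA and, when free of ribosomes, the p53 inhibitor Mdm2. Rpl5 was listed at only 23.5, 20.6, 30.5 and 39.5 TPM in livers on low sitosterol, high sitosterol, ergosterol and stigmasterol, with 110 and 135 TPM in the adrenals. Rpl11 stood at 316, 352, 337 and 464 TPM in those livers, and at 701 and 728 TPM in adrenals. The pair was therefore more than 10 times apart in TPM in these livers, although the proteins enter the ribosome in equal number. How the authors joined transcripts to genes is not stated, and its part in such low levels was not tested. The other members with the lowest TPM were Rpl7l1, Rps4l, Rpl12 and Rpl37, with Rpl22l1 in place of Rpl37 in the ergosterol liver and Rpl27 in the high sitosterol adrenal. Rpl37 and Rpl27 are named after their values were seen.

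Several members belong to pairs of related genes, and the balance within a pair does not depend on the scaling between libraries. Rpl22 binds RNA in the large subunit, and Rpl22l1 is its close relative that can take its place. Rpl22l1 made up 37.0%, 36.9%, 17.1% and 34.5% of the counts of the pair in livers on low sitosterol, high sitosterol, ergosterol and stigmasterol, with 22.1% and 20.4% in adrenals on low and high sitosterol. The exact interval in the ergosterol liver was 16.1% to 18.1%, below the 33.6% to 38.1% spanned by the intervals of the other livers. Rpl22l1 itself had 2981, 3045, 903 and 3865 counts in these livers, and Rpl22 had 5065, 5209, 4386 and 7328. The ergosterol liver stood apart in Rpl22l1, and Rpl22 varied less.

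Rps27l, a relative of Rps27 that is induced by p53, differed between the tissues in its share of the pair. It held 58.7%, 59.6%, 61.2% and 53.9% of the counts of the pair in livers on low sitosterol, high sitosterol, ergosterol and stigmasterol, but 29.2% and 24.2% in adrenals on low and high sitosterol. In TPM, Rps27l was at 464, 522, 413 and 577 in these livers, and at 306 and 299 in adrenals, while Rps27 was at 544, 575, 434 and 817 in these livers, and at 1236 and 1604 in adrenals. In TPM, Rps27l was thus lower in both adrenals than in any liver, and Rps27 was higher. On that scale the median log2 ratio of adrenal to liver over all genes was itself 2.19 on low and 1.90 on high sitosterol. The direction of a single gene between tissues therefore depends on the scaling, and the share of the pair does not.

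Rpl7l1 made up 10.3% to 12.6% of the counts of the pair with Rpl7, and Rps4l 3.79% to 6.32% of the pair with the X-linked Rps4x. The share of Rps4l was highest in the low sitosterol liver and lowest in the high sitosterol adrenal, with separate intervals (5.94% to 6.71% and 3.579% to 4.003%). Rplp1 with Rplp0, which form the stalk together with Rplp2, stood at a TPM ratio of 3.16, 4.55, 3.26 and 4.01 in livers on low sitosterol, high sitosterol, ergosterol and stigmasterol, with 1.82 and 1.81 in the adrenals. Liver and adrenal libraries did not overlap in this ratio, and how many other pairs of genes separate in this way was not counted.

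The 7 members below the limit of 1 CPM were Rpl10l, Rpl39l, Rpl3l, Rpl6l, Rps12l1, Rps3a2 and Rps3a3. Rpl10l, the testis relative of Rpl10, and Rps12l1 had no counts in any library, which allows at most 0.0593 to 0.0722 CPM, taking 3 counts as the limit of a count of 0. Rpl3l, the form of Rpl3 found in heart and skeletal muscle, had 1 to 6 counts. Rpl39l had 0 to 4 counts, Rpl6l 0 to 10 and Rps3a3 6 to 24. Rps3a2 had 34 counts in the low sitosterol adrenal and none in the other libraries.

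**Figure D2:**
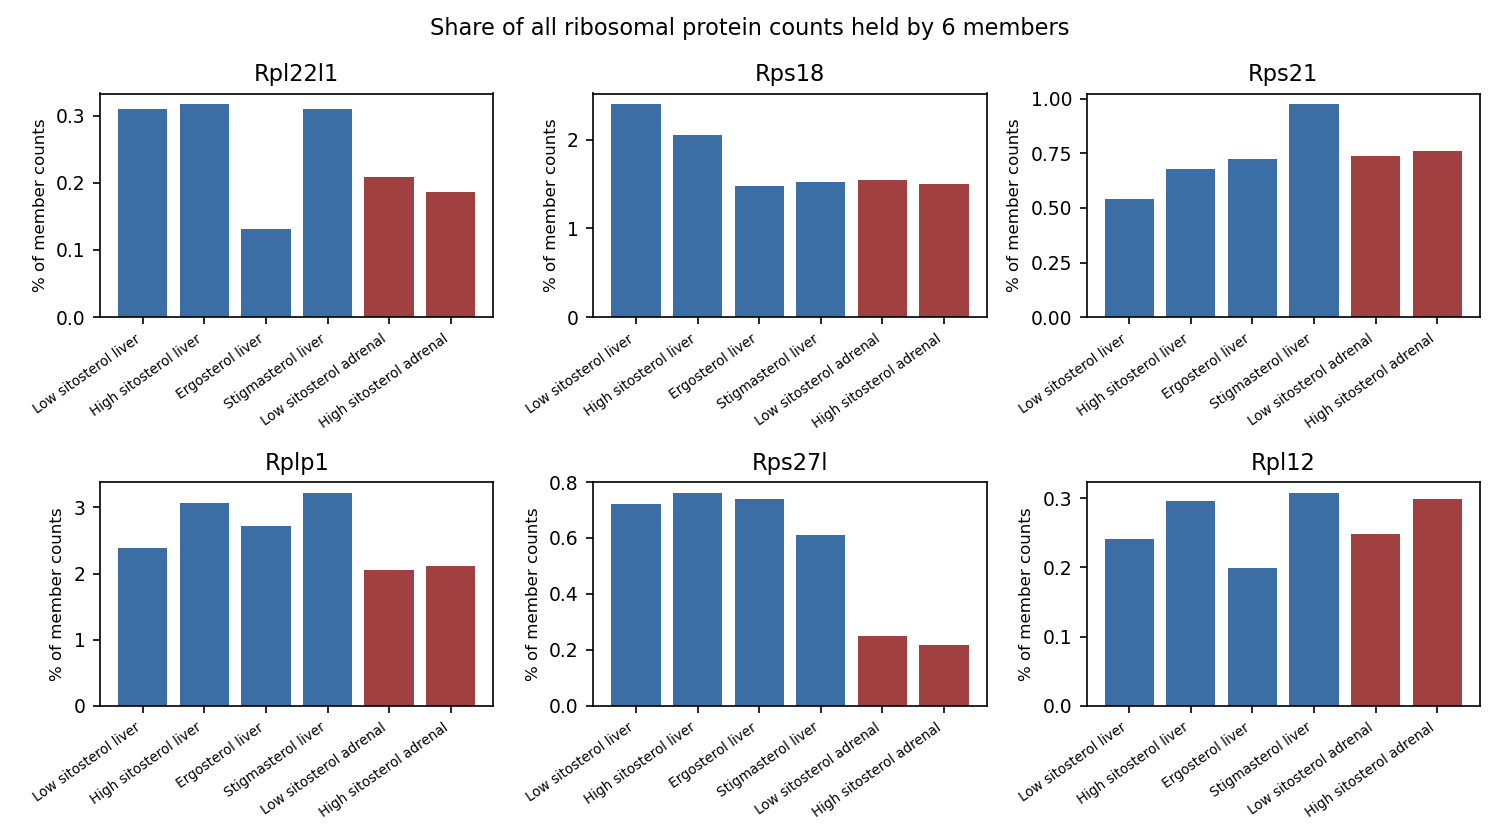
Share of all ribosomal protein counts (percent, bars from 0) held by 6 members in each of the 6 libraries, livers in blue and adrenals in red. Rpl22l1 is lowest in the ergosterol liver, and Rps27l is lower in both adrenals than in any liver.

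The study set each sterol-fed liver against the low sitosterol liver. For the ratios that follow, counts were scaled with TMM factors (which align the bulk of genes within a tissue), values are called scaled CPM, and ratios are on the log2 scale. The 3 liver comparisons share the low sitosterol liver, so a departure of that library enters all of them. A member was called if it differed by 1.5-fold or more with an interval that excluded equality.

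Between the high and the low sitosterol liver, ribosomal protein genes differed little. The median of the 81 members was -0.18 (-0.21 to -0.12) on the TMM scale, next to -0.05 over all 13378 analysed genes, and 0.019 with total counts, next to 0.15. The members lay close together, with 0.21 between their quartiles against 0.61 for all genes, which were not matched to them for abundance. No member was called higher (background over all genes 14.2%), and 2 were called lower (background 9.19%), Rps4l and Rpl41. None was lower at a limit of 2-fold (background 4.3%). The medians were -0.17 for the large and -0.19 for the small subunit, with overlapping intervals.

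Rps28, a small subunit protein near the mRNA exit channel, had the highest ratio of high to low sitosterol. It stood at 126, 163, 96.5 and 131 scaled CPM in livers on low sitosterol, high sitosterol, ergosterol and stigmasterol (log2 of high to low sitosterol 0.37, 0.32 to 0.43). The next ratios were those of Rplp1 (0.18), Rps12 (0.15), Rpl36 (0.15) and Rps21 (0.15). The lowest were Rps4l (-0.65, from 24.2 to 15.4 scaled CPM), Rpl41, which encodes the smallest ribosomal protein (-0.59, from 318 to 212), Rpl9 (-0.51), Rps14 (-0.46) and Rpl15 (-0.46). Rpl41 was just past the 1.5-fold limit of 0.58 on the log2 scale, and Rpl9 was the next outside it.

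In the ergosterol liver, ribosomal protein genes stood lower as a group than in the low sitosterol liver. The median of the 81 members was -0.58 (-0.66 to -0.51), against 0.02 over all 13378 genes. Below 0 were 80 of 81 members and 48.0% of all genes. No member was called higher (background 14%), and 40 of 81 were called lower (background 12.5%). At a limit of 2-fold, 6 members were lower (background 5.81%). With total counts 22 members were called lower (8.6% of all genes), and in TPM 7 were (6.08% of all genes), with 64 of 81 below 0. The large subunit median was -0.58 and the small subunit median -0.58, with 24 of 48 and 16 of 33 members called lower.

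Rpl22l1 had the lowest ratio of all. It stood at 72.8, 65.7, 20.3 and 56.7 scaled CPM in livers on low sitosterol, high sitosterol, ergosterol and stigmasterol (log2 of ergosterol to low sitosterol -1.84, -1.95 to -1.74). Only the ergosterol liver was low among the 4. Its gene lies at chr3:28805436-28807424 on the plus strand of GRCm38.

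Rps18, a protein of the small subunit head, came next. It stood at 564, 426, 230 and 279 scaled CPM in livers on low sitosterol, high sitosterol, ergosterol and stigmasterol (log2 of ergosterol to low sitosterol -1.29, -1.33 to -1.26). Here the ergosterol and the stigmasterol liver were both low and the low sitosterol liver was highest. Rpl17 (-1.08), Rps14 (-1.05), which lies in the small subunit platform, and Rps25 (-1.04), needed by some viral entry sites of translation, followed.

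The fixed members of known function stood lower by varying amounts. Among the proteins tied to regulation, the ratio was -0.49 for Rpl5, -0.34 for Rpl11, -0.87 for Rpl13a, -0.33 for Rpl22 and -0.51 for Rpl38, which is known for its role in translation of Hox mRNAs. Rps6, the target of the S6 kinases, stood at 368, 302, 304 and 344 scaled CPM in livers on low sitosterol, high sitosterol, ergosterol and stigmasterol (-0.27 for ergosterol). Rps19, the gene most often mutated in Diamond-Blackfan anemia, had -0.52, and Rpsa, also known as the laminin receptor, had -0.67. The stalk genes Rplp0, Rplp1 and Rplp2 had -0.52, -0.41 and -0.30. Rps4x, X-linked, was among the members that differed least (-0.17).

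Rpl10, X-linked (chrX:74270812-74273135, plus strand) and needed to make the large subunit ready for translation, was the only member with a ratio above 0 (0.13, 0.10 to 0.16). It stood at 331, 327, 362 and 258 scaled CPM in livers on low sitosterol, high sitosterol, ergosterol and stigmasterol. Its value changed when rows named after it were added. The row Rpl10-ps3 (chr9:50344201-50344968, minus strand), named as a pseudogene and annotated as protein coding in GENCODE M21, held 20489, 18262, 8404 and 15405 counts in the same livers. With all pseudogene-named rows of Rpl10 added, a setting chosen after seeing the data, the ratio of ergosterol to low sitosterol was -0.70 and no longer above 0.

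**Figure D3:**
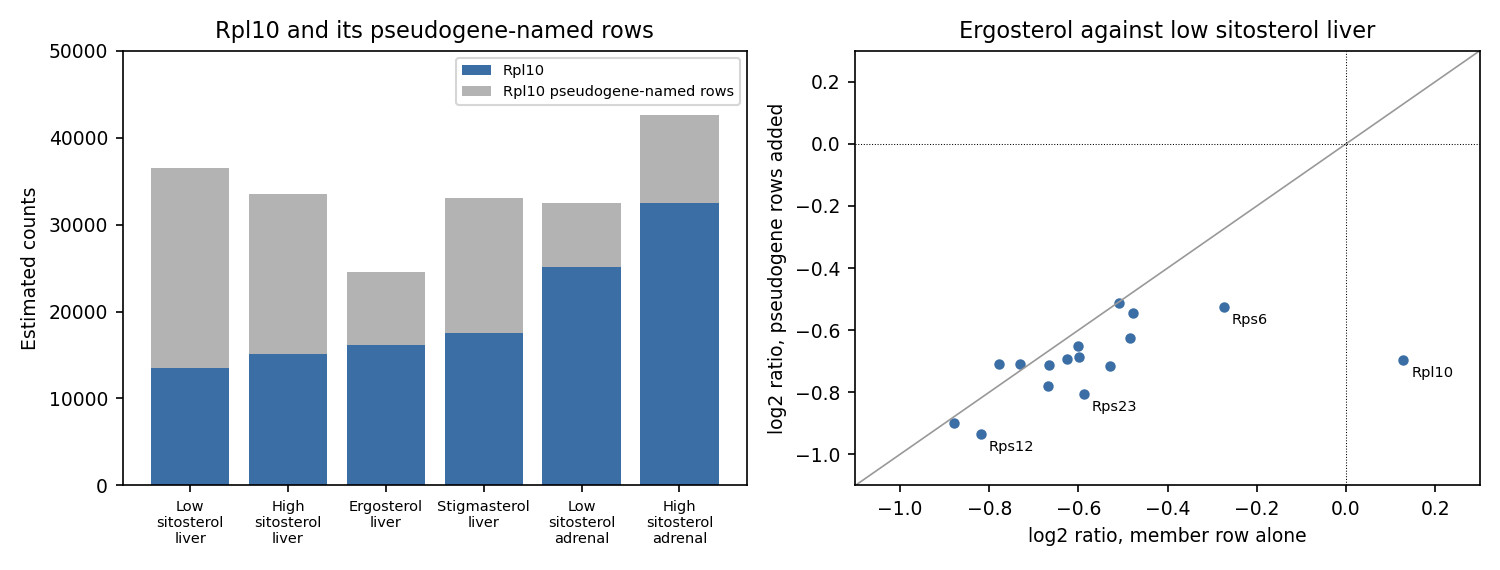
Left, estimated counts of Rpl10 and of the rows named as its pseudogenes in each library (stacked bars from 0). Right, log2 ratio of the ergosterol to the low sitosterol liver for the member row alone against the same with pseudogene-named rows added, for the 16 members whose pseudogene-named rows held over 10% of the summed counts in at least 1 library. The diagonal marks equal values, and Rpl10 moves from 0.13 to -0.70.

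Rows named as pseudogenes of other members also held many counts. Their share was 69.4% to 72.9% of the summed counts for Rpl27, 63.1% to 66.5% for Rps12, 47.9% to 55.2% for Rps23 and 48.0% to 49.8% for Rpl39. For Rps6 the share was 33.2%, 40.4%, 20.5% and 17.7% in livers on low sitosterol, high sitosterol, ergosterol and stigmasterol, with 9.90% and 10.7% in the adrenals. The ratio of ergosterol to low sitosterol for Rps6 was -0.53 with these rows added, against -0.27 without them. The 278 pseudogene-named rows of ribosomal protein genes together took 0.197%, 0.196%, 0.106% and 0.190% of the counts of these livers. How reads were divided between these rows and the members was not examined, so levels of these members are uncertain, and the direction in the ergosterol liver was lower for all 16 plotted members once the rows were added.

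Transcript length moved with the ratios of all genes in this comparison. Non-member genes with a longest coding transcript under 1000 bases had a median of -0.41 and those over 3000 bases a median of 0.15. Of 80 members with a transcript length, 46 were under 1000 bases. The summed macrophage markers stood at 108, 350, 213 and 187 CPM in livers on low sitosterol, high sitosterol, ergosterol and stigmasterol, those of dividing cells at 1.53 and 5.32 CPM on low sitosterol and ergosterol, and those of neutrophils at 5.25 and 0.732 CPM. The part of length and of these markers in the members' ratios was not tested. The adrenal genes in the low sitosterol liver could not be set aside by leaving it out, but with the high sitosterol liver as control, chosen after seeing the data, the members' median was still lower, at -0.46.

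In the stigmasterol liver the direction of the members depended on how the libraries were scaled. With TMM factors the median of the 81 members was -0.34 (-0.40 to -0.24), against 0.08 over all 13378 genes. Below 0 were 74 of 81 members and 45.6% of all genes. With scaling to total counts the median was 0.35 and 74 of 81 members were above 0, while the median of all genes rose to 0.77. In TPM the members' median was 0.58 and that of all genes 0.94. The members stood below the median of all genes by -0.42 with TMM, -0.42 with total counts and -0.36 in TPM. Going from TMM to total counts moves all genes of a comparison by nearly the same amount. Only TPM could therefore have given another distance. The spread over all genes, not matched for abundance, was wide in this comparison, with 1.19 between the quartiles, against 0.36 for the members.

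**Figure D4:**
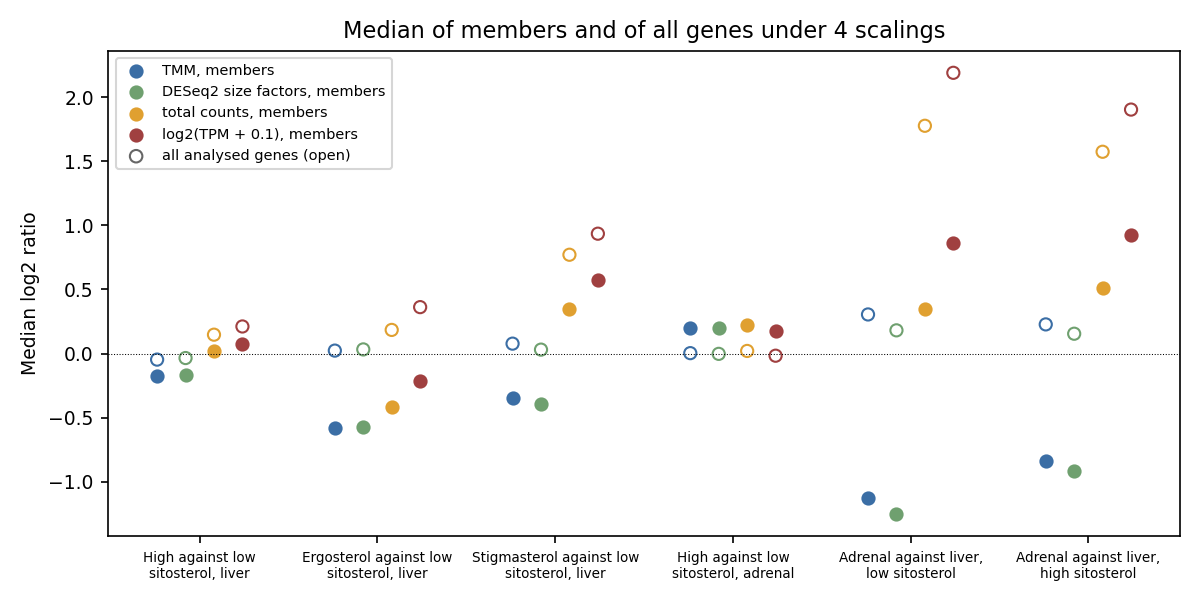
Median log2 ratio of the 81 members (filled) and of all analysed genes (open) under 4 scalings, for the 4 comparisons of diets and the 2 of tissues. The members lie below all genes in each liver comparison and tissue comparison and above them in adrenal, while the sign of their median flips with the scaling for high sitosterol liver, stigmasterol liver and adrenal against liver. TMM, DESeq2 and total counts move filled and open points together, so only TPM can change the distance between them.

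On the TMM scale no member was called higher in the stigmasterol liver (background 29.9%) and 19 were called lower (background 17%). Only 1, Rps18, was lower at a limit of 2-fold (background 7.79%). With total counts 17 were called higher, where 60% of all genes were, and none lower, where 5.05% of all genes were. The share called lower was thus near the background on the TMM scale. The large subunit median was -0.39 and the small subunit median -0.27, a difference of -0.13 with overlapping intervals.

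Rps21 and Rplp2 stood out at the upper edge. Rps21, on the solvent side of the small subunit, stood at 127, 141, 112 and 178 scaled CPM in livers on low sitosterol, high sitosterol, ergosterol and stigmasterol (log2 of stigmasterol to low sitosterol 0.49, 0.44 to 0.54). Rplp2, the partner of Rplp1 in the stalk, stood at 199, 197, 161 and 252 scaled CPM (0.34, 0.30 to 0.38). Both were highest in the stigmasterol liver on the TMM scale and in TPM, with 1392 and 1071 TPM there and 512 and 511 TPM on low sitosterol. Rps12 (0.09), Rps9 (0.08) and Rplp1 (0.07) came next.

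Rps18 was lowest again, with a log2 ratio of stigmasterol to low sitosterol of -1.02 (-1.04 to -0.99). Among the next were Rps25 (-0.91), Rpl7a (-0.86) and Rpl26, which also binds p53 mRNA (-0.77). The TPM of Rps18 was 1248, 1154, 651 and 1156 in livers on low sitosterol, high sitosterol, ergosterol and stigmasterol. On that scale it differed little between the low sitosterol and the stigmasterol liver, when most members were higher. The share of Rps18 in all ribosomal protein counts, which no scaling moves, was 2.40% in the low sitosterol and 1.52% in the stigmasterol liver.

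Markers of other cells and transcript length moved with this comparison. The summed CPM of the cholangiocyte, stellate and matrix, and dividing cell markers was highest in the stigmasterol liver, as given above. Of the stellate and matrix list, Col1a1 (4.15), Col3a1 (3.87) and Dcn (1.17) had high log2 ratios on the TMM scale. Acta2 (-0.06) and Lrat (-0.08) did not differ beyond counting error. The part of these markers in the members' ratios was not tested. Non-member genes under 1000 bases had a median of -0.34 and those over 3000 bases of 0.22. With the high sitosterol liver as control, chosen after seeing the data, the median was -0.17, next to 0.10 over all genes. There 3 members were called lower, and the share of all genes called was not counted.

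**Figure D5:**
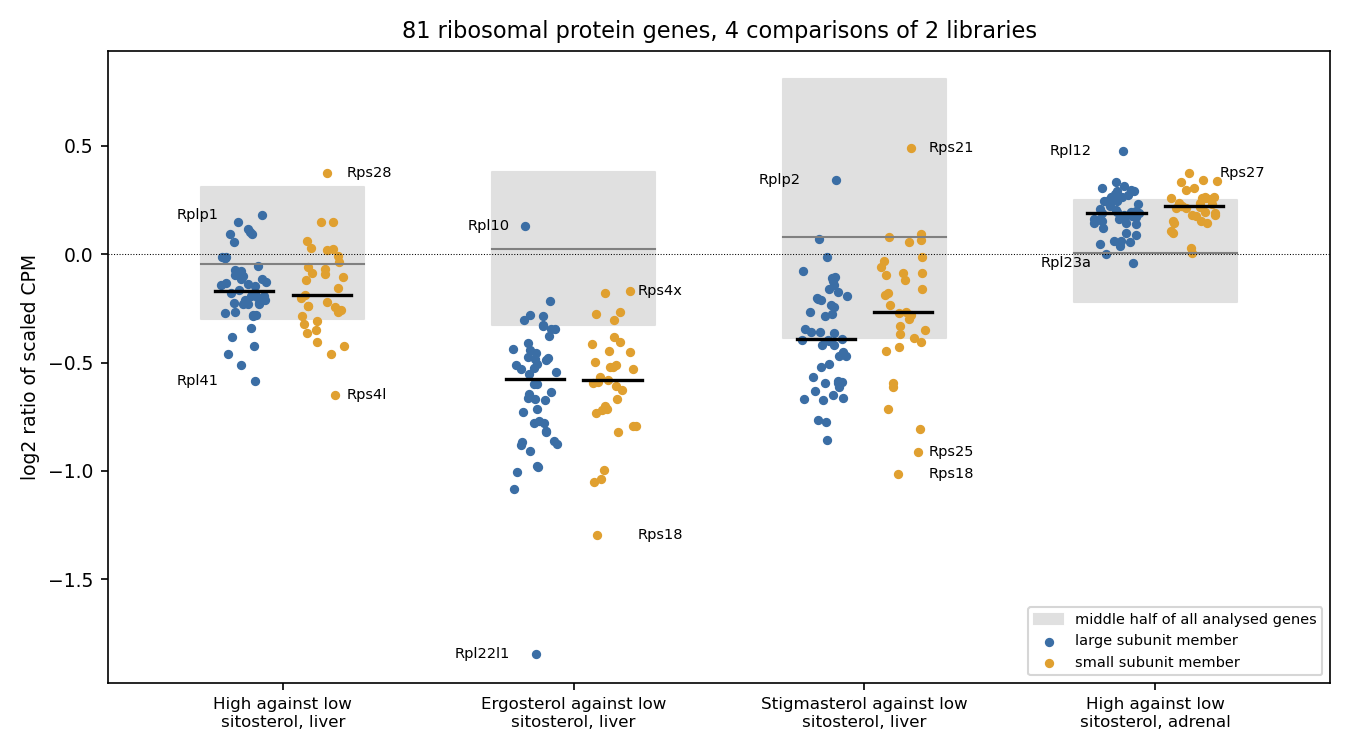
Log2 ratio of scaled CPM (TMM) for each of the 81 analysed members in the 4 comparisons, large subunit in blue and small subunit in orange, with black bars at the subunit medians. Grey boxes span the quartiles of all analysed genes with their median as a line. Members lie low in the ergosterol liver (median -0.58) and slightly high in the high sitosterol adrenal (median 0.20). With total counts or TPM the sign flips in the high sitosterol and stigmasterol livers.

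Across the 4 livers, the ergosterol liver was the lowest for 63 of 81 members on the TMM scale, for 78 in CPM and for 62 in TPM. The highest liver was low sitosterol for 63 members on the TMM scale, but stigmasterol for 69 members in CPM and for 78 in TPM. These places were not counted over all genes. Against low sitosterol, 60% of all genes were called higher in the stigmasterol liver with total counts and 69.7% in TPM. For most members the ergosterol liver was lowest on each scale, while the highest liver changed with the scale. Without the places of all genes, these counts do not set the members apart from other genes.

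Between the adrenals, ribosomal protein genes were slightly and evenly higher on high sitosterol. The median of the 81 members was 0.20 (0.18 to 0.23), against 0.00 over all 14224 analysed genes. Above 0 were 80 of 81 members and 50.4% of all genes. The quartiles of the members were 0.10 apart, the narrowest spread of the 4 comparisons, against 0.47 for all genes, which were not matched for abundance. None was called higher (background 10.2%) and none lower (background 7.16%) at the 1.5-fold limit. The large subunit median was 0.19 and the small subunit median 0.22, with overlapping intervals. The sign of the median held under each of the scalings run (0.18 to 0.22).

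Rpl12, which sits at the base of the stalk, had the highest ratio between the adrenals. It stood at 62.9 scaled CPM on low and 87.4 on high sitosterol (log2 0.47, 0.40 to 0.55). Rps27, a zinc finger protein, stood at 153 and 198 (0.38, 0.33 to 0.42). Rps23 (0.34), Rps20 (0.34) and Rpl36 (0.33) followed. Rpl23a, near the exit of the protein tunnel, was the only member below 0, at 358 and 348 scaled CPM (-0.04, -0.07 to -0.01), and stood at 0.06 with its pseudogene-named rows added. Rpl22l1 (0.05), Rps28 (0.03) and Rps27l (0.00) did not differ beyond counting error.

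Among the fixed members the adrenal ratios lay close together. Rpl3, near the peptidyl transferase centre, had 0.30, Rpl5 had 0.31, Rplp0 0.26, Rps6 0.26, Rps4x 0.26, Rps3 0.21, Rps19 0.22 and Rpsa 0.24. Rpl11 (0.06) and Rpl39 (0.09) stood lower. Summed adipocyte markers were 2061 CPM on low and 816 CPM on high sitosterol, and those of macrophages 102 and 199 CPM. Their part in the members' ratios was not tested. Non-member genes had medians of 0.01 under 1000 bases and -0.03 over 3000 bases.

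The high against low sitosterol ratios of the members in liver and in adrenal come from separate libraries. Over the 81 members their Pearson correlation was 0.05, as a description across genes that share libraries and are not independent. Rpl36 was among the 5 highest ratios in both tissues, while Rps28 was highest in liver at 0.37 and near 0 in adrenal.

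Between tissues, the members took more of the counts in adrenal than in liver, by a ratio of 1.28 on low and 1.49 on high sitosterol. In TPM the ratios were 1.82 and 1.91. With TMM factors over both tissues the medians were -1.13 and -0.84, against 0.31 and 0.23 over all 15125 genes, so that the direction flips with the scaling. On that scale none was called higher (background 43% and 40.3%), and 76 and 60 of 81 were called lower (background 29.3% and 29.9%) on low and high sitosterol. Liver libraries give much of their counts to a few genes, and total-count scaling moved the median of all genes to 1.78 and 1.57. Relative to all genes, the members' median differed on low sitosterol by -1.43 with TMM factors and by -1.33 in TPM. DESeq2 factors and total counts move all genes nearly alike, so they could not give a distance far from that with TMM. Rps27l had the lowest tissue ratio on the TMM scale in both pairs, -2.65 and -2.60.

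Genes of the wider translation apparatus were described from lists. Of 20 genes for elongation factors and other TOP mRNAs, the TMM medians were -0.23, -0.40 and -0.42 in the high sitosterol, ergosterol and stigmasterol livers and 0.17 in adrenal. None was called in the high sitosterol liver or in adrenal, 4 were called lower and none higher in the ergosterol liver (12.5% and 14% of all genes), and 7 lower and 1 higher in the stigmasterol liver (17% and 29.9% of all genes). Tpt1, a growth-linked TOP mRNA, had -0.92 and Pfdn5, a subunit of a folding chaperone, -0.84 in the ergosterol liver. In the stigmasterol liver, where total-count scaling moves the median of all genes from 0.08 to 0.77, Tpt1 had -0.88 and Eef1a1, the main elongation factor, -0.80.

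Ribosome biogenesis genes, which process ribosomal RNA and assemble subunits, showed the highest list median between the adrenals. Of 32 genes, 8 were called higher and none lower (10.2% and 7.16% of all genes), with a median of 0.42 next to 0.20 for the ribosomal proteins. Nop56, a core protein of box C/D snoRNPs, had a log2 ratio of 1.12, Tsr1 0.82, Gnl3 0.81 and Grwd1 0.74. In liver the list had medians of -0.18, -0.19 and -0.05, with 3, 3 and 5 called lower and 0, 0 and 2 called higher on high sitosterol, ergosterol and stigmasterol. Over all genes 9.19%, 12.5% and 17% were called lower there and 14.2%, 14% and 29.9% higher. Gnl3, nucleostemin, had -0.76, -1.29 and -1.20 in these livers and so stood on the opposite side in adrenal.

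Genes of RNA polymerase I, which transcribes ribosomal RNA, had medians of 0.05, -0.31 and -0.14 in the livers and 0.18 in adrenal over 19 genes. In the ergosterol liver 5 of them were called lower and none higher, where 12.5% and 14% of all genes were, with Taf1d at -1.41. The counts were 1 higher and 1 lower on high sitosterol, 2 higher and 4 lower on stigmasterol, and 1 higher and 0 lower in adrenal. Translation initiation factors (25 genes) had medians of -0.33, -0.32 and -0.35 in the livers and 0.11 in adrenal, with 0, 2 and 5 called lower in the livers and none called higher there, and 1 higher and none lower in adrenal. Genes of mTORC1 control had medians of -0.15, 0.38 and -0.14 in the livers and 0.11 in adrenal over 18 genes. In the livers 3, 4 and 3 were called higher and 0, 1 and 1 lower, and none was called in adrenal. The counts of these 3 lists stand beside the shares over all genes given above for each comparison, 14.2%, 14% and 29.9% higher and 9.19%, 12.5% and 17% lower in the livers and 10.2% and 7.16% in adrenal. Of the mTORC1 list, Myc, a transcription factor that drives ribosome production, had log2 ratios of 1.61, 3.57 and 3.51 in the high sitosterol, ergosterol and stigmasterol livers and 0.25 in adrenal.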

How the data were processed

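For each of 6 libraries, the authors deposited estimated counts and TPM per gene symbol. Per the submitters' processing notes, Trimmomatic 0.33, HISAT2 2.0.5, kallisto 0.43.1 and mm10 were used, with no role or order given. Per the labels' protocols, the kit was TruSeq RNA v2, which does not keep the strand, so antisense or overlapping genes cannot be told apart. Neither the annotation nor the joining of transcripts to genes is given in the sources used here. Between 39.1% and 49.3% of genes had an estimated count that was not whole, and all were rounded. One row names no gene and was left out.

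Counts were scaled with TMM factors from edgeR 4.0.16 (R 4.3.3), within each tissue for diets and over all 6 libraries for tissues. Factors were 0.83, 0.95, 0.93 and 1.35 for livers on low sitosterol, high sitosterol, ergosterol and stigmasterol. Genes that reached 1 CPM in any library compared were analysed. Log2 ratios used a prior count of 0.5 and exact conditional binomial 95% intervals. Medians have order-statistic 95% intervals, over genes that are not independent. Intervals of ratios and shares cover counting error only, and PCR copies are not independent molecules. No interval covers differences between mice. The scripts (Python 3.11.15) were tested on simulated data. Alternatives were total counts, size factors from DESeq2 1.42.0, log2(TPM + 0.1), no filter, a prior count of 2, 2-fold and other sets of rows.

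Members and lists were chosen with earlier results of these data known. Named genes were the 5 highest and 5 lowest ratios per comparison (at least 10 CPM, interval excluding equality), the 5 highest mean TPM per tissue, 25 fixed members and up to 4 genes per companion list. A few of the genes so chosen are not reported here. Start regions came from RefSeq (GRCm38.p6) and gene coordinates from GENCODE M21.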

Additional observations from a re-analysis of the deposited data

How the results depend on the processing

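No paired analysis was possible because each group has 1 library, and leaving out a replicate was likewise not possible. Leaving the 10 most abundant genes out of the total gave shares of 2.48%, 2.62%, 1.83% and 2.99% in livers on low sitosterol, high sitosterol, ergosterol and stigmasterol, then 2.81% and 3.29% in the adrenals. Adding other ribosome proteins and pseudogene-named rows gave 2.23%, 2.24%, 1.61%, 2.74%, 2.77% and 3.25%, and the share of TPM was 4.30%, 4.65%, 3.63%, 6.33%, 7.82% and 8.88%, in the same order.

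With total counts the members' median was 0.019, -0.42 and 0.35 in the high sitosterol, ergosterol and stigmasterol livers and 0.35 and 0.51 between tissues on low and high sitosterol. With log2(TPM + 0.1) it was 0.077, -0.22 and 0.58 in these livers, 0.18 in adrenal and 0.86 and 0.93 between tissues. DESeq2 size factors gave -1.25 between tissues on low sitosterol. With the high sitosterol liver as control, added after seeing the data, the medians were -0.46 for ergosterol and -0.17 for stigmasterol. The median of all genes went with total counts from -0.05 to 0.15, from 0.02 to 0.18 and from 0.08 to 0.77 in these livers.

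The 2 members called lower in the high sitosterol liver became 0 with total counts (5.61% of all genes), 1 with DESeq2 (8.85%), 0 with TPM (5.14%) and 0 at 2-fold (4.3%). In TPM 1 was higher, where 22.9% of all genes were. The 40 lower in the ergosterol liver became 22 with total counts (8.6% of all genes), 7 in TPM (6.08%) and 6 at 2-fold (5.81%). In the stigmasterol liver 17 were higher with total counts (60% of all genes) and 40 in TPM (69.7%). None was lower in either, where 5.05% and 3.66% of all genes were. At 2-fold 1 was lower (7.79%), and 3 were lower against the high sitosterol liver, where no share of all genes was counted. Without the low-count filter 1 member, Rps3a2, was lower in adrenal, where no share of all genes was counted.

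In TPM and without relatives such as Rpl22l1 and Rps27l, the difference between subunit medians moved by no more than the combined half-widths of the medians' intervals. A limit of 10 CPM gave the same values as the main setting in each comparison, so it was no check. Of the named members called in the stigmasterol liver, Rpl15 and Rps27l reversed with total counts (0.10 and 0.083) and in TPM (0.30 and 0.31), and Rpl26 (0.15), Rpl7a (0.067) and Rps2 (0.11) reversed in TPM. The change to total counts raises each gene of this comparison almost equally, with an all-gene median of 0.08 before and 0.77 after it. Members above 0 went from 7 to 74 of 81. The sign change of Rpl15 and Rps27l with total counts thus follows from the scaling and is not particular to them. In TPM 79 of 81 members lay above 0 and the all-gene median was 0.94. The cause of the reversals in TPM was not tested.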

Other observations

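Mitochondrial ribosomal proteins, which build the separate ribosomes of mitochondria, stood on the same side as the cytosolic ones in liver on the TMM scale but not in adrenal. All 78 genes were analysed in liver and in adrenal. Their medians were -0.18, -0.33 and -0.44 in the high sitosterol, ergosterol and stigmasterol livers, and -0.06 in adrenal, where the cytosolic members had 0.20. In the livers 2, 10 and 22 were called lower, where 9.19%, 12.5% and 17% of all genes were, and none higher, where 14.2%, 14% and 29.9% of all genes were. None was called in adrenal (10.2% of all genes higher and 7.16% lower). In the ergosterol liver Mrps6 and Mrpl33 both had a log2 ratio of -1.04, and in the stigmasterol liver Mrps36 had -1.40.

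Ribosome proteins outside the naming rule were also read. Rack1, a scaffold on the small subunit, had log2 ratios of -0.39, -0.60 and -0.43 in the high sitosterol, ergosterol and stigmasterol livers and 0.22 in adrenal. Fau, which makes a small subunit protein fused to a ubiquitin-like one, had -0.38, -0.31, -0.41 and 0.18. Rps27rt, an expressed copy of Rps27 at chr9:114982366-114982739, had -1.14 in the ergosterol liver.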
